A study of Mus musculus with 10 samples.

Results

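The mannose-binding and C-type lectin receptors are 10 genes, Cd209a, Cd209b, Cd209d, Cd209e, Mrc1, Clec4n, Clec7a, Clec10a, Mbl1 and Mbl2, out of 18193 genes that have a probe set of their own on the array. Their members were taken as every probe set annotated with exactly 1 of these symbols, which gave 12 of 45037 probe sets, with 2 each for Cd209b and Clec4n. Dim probe sets were kept. RNA of gastrocnemius, a calf muscle, was measured on 10 Affymetrix arrays, each with the RNA of 1 male mouse aged 13 months. One group held 5 D257A mice (PolgD257A/D257A), which are homozygous for a form of the mitochondrial DNA polymerase γ that cannot proofread and so accumulate mitochondrial DNA mutations. The other held 5 WT mice (Polg+/+). Both came from a mixed 129Sv/ICR/B6 stock crossed back to C57Bl/6J. The arrays cannot show the point mutation itself, and the labels were not checked by it.

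C-type lectins bind sugars through a fold that usually needs calcium. On macrophages and dendritic cells they take up glycoproteins and microbes that display mannose, fucose, galactose or glucan, and some signal through adaptor proteins with tyrosine motifs. Mbl1 and Mbl2 are different: they are secreted, mainly by the liver, and start the lectin pathway of complement when they meet mannose on a surface. In muscle, cells with such receptors are mostly resident macrophages between the fibers. Muscle RNA holds all cells together, so fewer cells of a type and less RNA per cell cannot be told apart in any value below.

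Signals are linear units after each array was scaled to the same trimmed mean (the highest and lowest 2% of probe sets left out) of 500. The deposited columns had trimmed means of 93.5 to 106 in D257A mice and 94.5 to 129 in WT mice. Log2 signals were compared with limma, fold changes are D257A minus WT on the log2 scale, and a call means an adjusted p (Benjamini-Hochberg) under 0.05. Of the 22518 probe sets brighter on average than a scaled signal of 76.9, the median of all, 819 were called higher (3.64%) and 843 lower (3.74%), so 49.3% of calls were higher. That split was 79.3% with arrays centred on their median and 29.4% without scaling. The median log2 fold change of those probe sets was -0.03, against 0.10 and -0.10 in these alternatives. With no filter, 541 of 45037 probe sets were called higher (1.2%) and 599 lower (1.33%). Leaving out 1 WT mouse, 1-13M, raised the number of calls from 1662 to 3428. The distance of this mouse from its group over all probe sets was not measured. All D257A mice have numbers that start with 2, as do WT mice 2-3M and 2-32M only, and the meaning of that digit is not stated. A fit with that digit as a block therefore takes its fold change from the mice numbered 2 alone. It gives the same fold change as a fit of those mice and is no separate check.

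Of the 8 membrane receptors, 5 were higher in D257A muscle by at least 1 probe set, and neither of the secreted lectins was called. Over all 12 probe sets, limma with no filter called 5 higher, for Cd209d, Cd209e, Mrc1, Clec4n and Clec10a, against 1.2% of all probe sets. It called 0 lower, and 0 were lower at an unadjusted p under 0.05 or by the methods' t-test. The filter was passed by 6 probe sets, 1 each for Cd209a, Cd209d, Mrc1, Clec4n, Clec7a and Clec10a. The Clec4n probe set passed only through its D257A mice, as all its WT values were below 76.9. In the fit over the filtered probe sets 4 of the 6 were called higher, for Cd209d, Mrc1, Clec4n and Clec10a, against 3.64% of all filtered probe sets. The same 4 were called above the filter with the arrays scaled by quantiles, centred on their medians or left unscaled, but Clec4n was not called when unscaled with no filter (adjusted p = 0.0633). With the methods' t-test on log2 signals and no filter, Cd209e was called (adjusted p = 0.0356) and Cd209d, Mrc1, Clec4n and Clec10a were not (0.0775, 0.0641, 0.0541 and 0.0512). In 6 of the 12 probe sets, for Cd209a, Cd209d, Cd209e, Mrc1, Clec4n and Clec10a, every D257A mouse lay above every WT mouse, which held for 2.18% of all probe sets. Among those above the filter this held for 5 of 6 members, counting that Clec4n probe set, and for 3.94% of all probe sets. The median log2 fold change was 1.00 over the 12 and -0.08 over all probe sets. The members were chosen with earlier results of these data known, so the shares over all probe sets are no independent test of them.

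**Figure D1:**
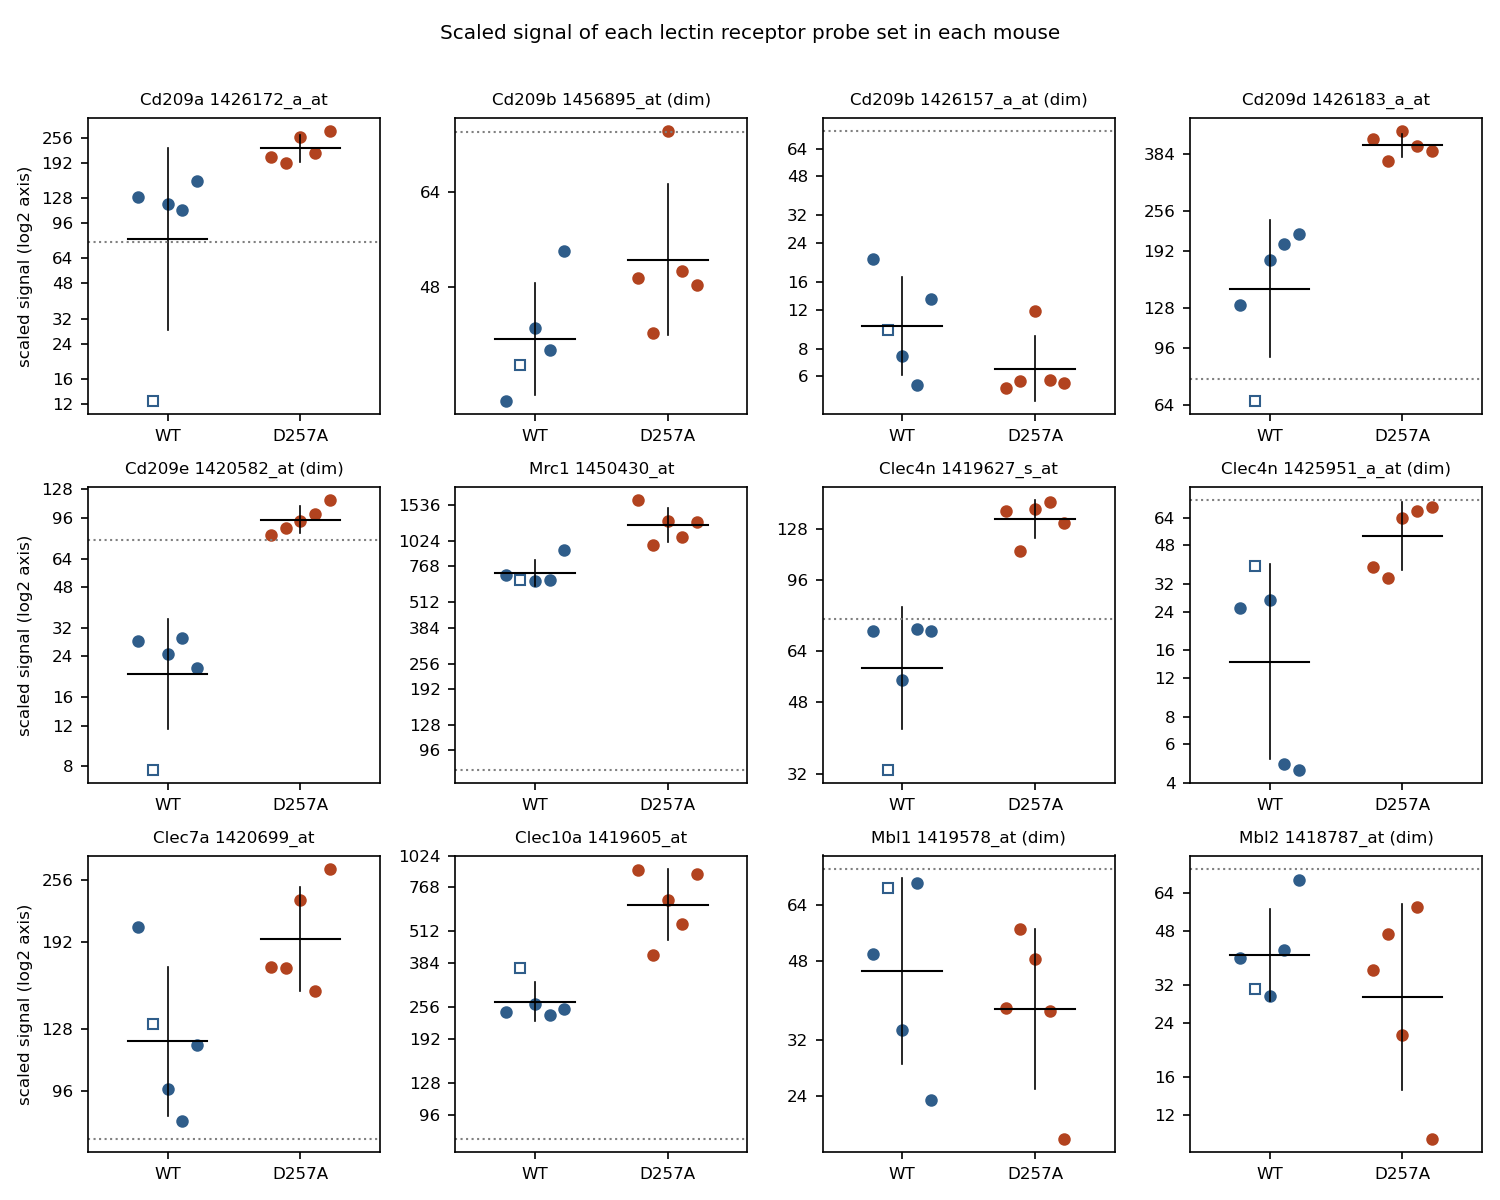
Scaled signal (log2 axis) of each of the 12 probe sets in each mouse, with WT in blue, D257A in orange and WT mouse 1-13M as an open square; horizontal bars are means and vertical bars SD of log2 signals, n = 5 each, and the dotted line is the filter at 76.9. The genotypes are separate for Cd209a, Cd209d, Cd209e, Mrc1, Clec10a and 1 probe set of Clec4n.

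Cd209a, Cd209b, Cd209d and Cd209e belong to a family of transmembrane receptors for mannose- and fucose-rich glycans whose human counterpart is DC-SIGN. Their genes lie side by side on chromosome 8, where RefSeq (GRCm38.p6) gives the protein-coding order Cd209a, Cd209e, Cd209d, Cd209b, Cd209c, Cd209f, Cd209g. The promoters of the 4 genes, 250 bases before and 50 after the start of the transcript, are shown because Cd209d and Cd209e rose, Cd209a did not overlap between genotypes, and their neighbor Cd209b was not called. They are given 5′ to 3′ on the strand of the gene, which is the minus strand for all 4, from the RefSeq table of GRCm38.p6: chr8:3748935-3749234 for Cd209a, chr8:3854237-3854536 for Cd209e, chr8:3878450-3878749 for Cd209d and chr8:3926792-3927091 for Cd209b. Capitals mark the matches described next.
Cd209a: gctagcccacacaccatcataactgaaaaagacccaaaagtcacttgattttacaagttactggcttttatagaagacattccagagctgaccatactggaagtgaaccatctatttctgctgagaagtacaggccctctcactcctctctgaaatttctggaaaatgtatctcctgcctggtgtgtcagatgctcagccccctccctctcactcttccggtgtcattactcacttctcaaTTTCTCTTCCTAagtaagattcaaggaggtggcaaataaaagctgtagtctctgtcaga
Cd209e: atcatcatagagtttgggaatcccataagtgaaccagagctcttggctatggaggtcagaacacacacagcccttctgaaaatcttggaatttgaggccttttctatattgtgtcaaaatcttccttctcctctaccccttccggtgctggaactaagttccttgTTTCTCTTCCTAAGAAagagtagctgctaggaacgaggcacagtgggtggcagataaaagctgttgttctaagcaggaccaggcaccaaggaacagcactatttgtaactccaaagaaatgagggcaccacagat
Cd209d: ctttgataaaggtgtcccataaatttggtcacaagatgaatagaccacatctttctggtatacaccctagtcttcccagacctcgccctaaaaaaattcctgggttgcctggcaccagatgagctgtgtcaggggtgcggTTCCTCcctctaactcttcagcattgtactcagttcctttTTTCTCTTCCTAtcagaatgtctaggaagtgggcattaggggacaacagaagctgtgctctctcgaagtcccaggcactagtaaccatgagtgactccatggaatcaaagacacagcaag
Cd209b: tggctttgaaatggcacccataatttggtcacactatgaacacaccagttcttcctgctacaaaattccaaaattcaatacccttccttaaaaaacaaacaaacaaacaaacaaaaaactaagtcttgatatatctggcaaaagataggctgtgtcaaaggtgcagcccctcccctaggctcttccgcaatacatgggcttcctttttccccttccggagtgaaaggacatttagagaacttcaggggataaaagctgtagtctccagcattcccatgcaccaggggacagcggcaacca

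The longest run of bases shared by at least 3 of the 4 promoters was TTTCTCTTCCTA, of 12 bases. Cd209a, Cd209d and Cd209e held it and Cd209b did not. On either strand 9 of the 32851 promoters in the table held it (0.0274%), and these 3 are among the 9. Its first base lay at -9 from the start in Cd209a, -70 in Cd209d and -85 in Cd209e. The run was found by searching these 4 sequences for one held by at least 3, so its presence in 3 was fixed in advance. Whether it bears on the signals was not tested. The next longest, of 11 bases, was shared by Cd209a, Cd209b and Cd209e. Also searched, on both strands, were GAGGAA, the core bound by the myeloid factor PU.1, and TTCNNNNGAA, the palindrome bound by STAT factors, which are in 28.3% and 6.95% of all promoters. Among the 4 promoters GAGGAA was found once, in Cd209d, on the strand opposite to the gene, where it reads TTCCTC at -110. TTCNNNNGAA was found once, in Cd209e at -79, and overlapped the shared run there. No match says only that these letters are not in the window, and a match is not a binding site.

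Cd209d had scaled signals of 430, 367, 454, 408 and 394 in D257A mice 2-17M, 2-21M, 2-25M, 2-27M and 2-30M. In WT mice 1-12M, 1-13M, 2-3M, 2-32M and 3-18M it had 131, 65.9, 180, 202 and 218. The lowest D257A mouse was well above the highest WT mouse, and the spread was wider among WT mice. The log2 fold change was 1.48 (SE 0.27, limma adjusted p = 0.00573, higher in 5 of 5 D257A mice), a 2.79-fold difference. It was 1.19 without WT mouse 1-13M and 1.10 with that first digit of the mouse numbers entered as a block (adjusted p = 0.0441). The fold change with the block rests on WT mice 2-3M and 2-32M alone.

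Cd209e, the gene between Cd209a and Cd209d, was dim, and its mean log2 signal of 5.44 was below the filter at 6.26. Its signals were 81.3, 86.5, 93.0, 99.6 and 115 in the D257A mice and 28.1, 7.7, 24.6, 29.0 and 21.3 in the WT mice, in the same order of mice. Every D257A mouse lay above the filter and every WT mouse far below it. In the fit with no filter the log2 fold change was 2.23 (SE 0.43, limma adjusted p = 0.0145), and 1.88 without WT mouse 1-13M (adjusted p = 0.00637). With 32 added to each signal, which damps differences near background, it was 1.24 (adjusted p = 0.0051). The WT signals were near background, so the size of this difference is uncertain and no fold is given.

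Cd209a had signals of 206, 191, 258, 215 and 277 in D257A mice. In WT mice it had 129, 12.4, 119, 111 and 156, so the genotypes did not overlap, and the 12.4 of WT mouse 1-13M was far under the others. The log2 fold change of 1.50 (SE 0.54, limma adjusted p = 0.109) was not called. Without WT mouse 1-13M it was smaller, 0.83, and was called (adjusted p = 0.00895), and among mice numbered 2 alone it was 0.98 (adjusted p = 0.0238). With the first digit of the mouse numbers as a block, the fold change was the same 0.98 and adjusted p was 0.423.

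Cd209b was not called by either probe set. Probe set 1456895_at had 41.7 to 77.2 in D257A mice and 33.9 to 53.5 in WT mice, with a log2 fold change of 0.35 (95% interval -0.41 to 1.11, fit with no filter). Probe set 1426157_a_at was very dim, with 5.3 to 11.8 and 5.5 to 20.3 and a log2 fold change of -0.64 (-1.87 to 0.59). The probe sets differ in sign, both are near background, and both intervals include 0. For the other neighbors, which are not members, the log2 fold changes were 0.10 for Cd209c (SE 0.60), -0.22 for Cd209f (SE 0.22) and -0.79 for Cd209g (SE 0.31, adjusted p = 0.144), with overlapping signals in all 3. Cd209c had 12.6 in WT mouse 1-13M, its lowest WT value. No difference between members of the family was tested. Its genes are similar in sequence, and whether a probe set also reads a paralog was not tested.

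**Figure D2:**
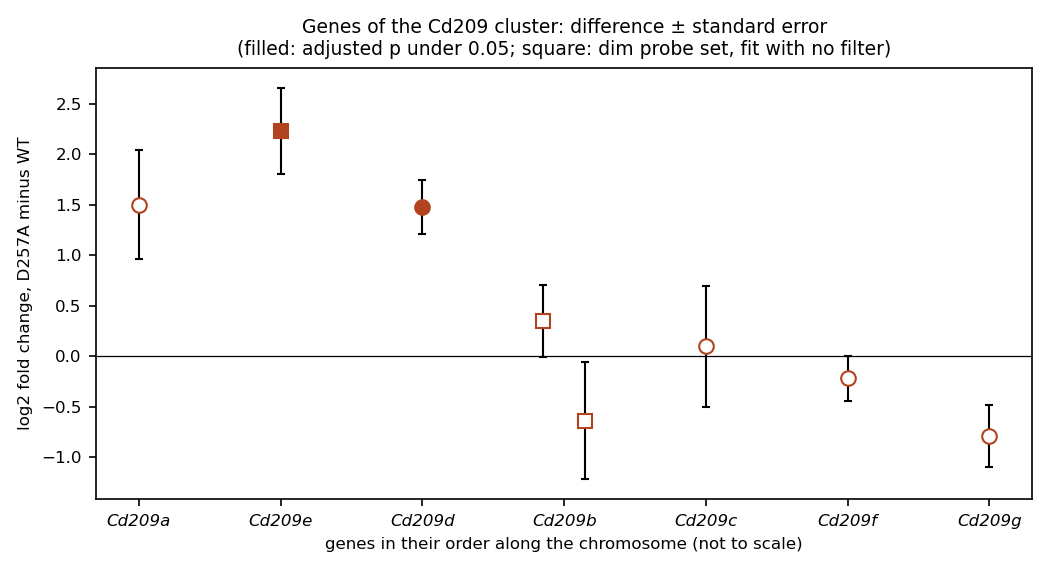
Log2 fold change (D257A minus WT) with its standard error for the genes of the Cd209 cluster in their chromosomal order, 5 mice per genotype, with filled symbols for calls and squares for dim probe sets. Cd209a, Cd209e and Cd209d lie at 1.50, 2.23 and 1.48, and Cd209b to Cd209g lie between -0.79 and 0.35.

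Mrc1, the macrophage mannose receptor, is an endocytic receptor that carries several lectin domains and clears mannosylated glycoproteins and collagen fragments. It had signals of 1627, 973, 1282, 1072 and 1272 in D257A mice and 693, 660, 654, 660 and 925 in WT mice. The other 4 WT mice lay close together, and WT mouse 3-18M came near the lowest D257A mouse without reaching it. The log2 fold change was 0.78 (SE 0.16, limma adjusted p = 0.00897), or 1.72-fold. It was 0.90 among mice numbered 2 alone (adjusted p = 0.0159), and was not called by the methods' t-test on linear signals (adjusted p = 0.0565). The promoter, on the plus strand at chr2:14229164-14229463 (GRCm38.p6, RefSeq), is shown because Mrc1 rose and held the most PU.1 cores of the members searched. Clec7a, which was not called, held GAGGAA and TTCNNNNGAA once each in both of its promoters in the table. The Mrc1 promoter held GAGGAA 3 times on the opposite strand, read here as TTCCTC and in capitals, at -180, -167 and -35, and no TTCNNNNGAA.
Mrc1: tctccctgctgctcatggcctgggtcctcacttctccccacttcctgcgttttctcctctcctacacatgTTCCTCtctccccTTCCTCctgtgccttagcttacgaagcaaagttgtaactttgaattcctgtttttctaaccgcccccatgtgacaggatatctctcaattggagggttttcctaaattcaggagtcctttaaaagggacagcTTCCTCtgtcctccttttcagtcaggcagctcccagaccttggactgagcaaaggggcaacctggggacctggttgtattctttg

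Clec10a is a receptor of macrophages and dendritic cells for galactose and N-acetylgalactosamine rather than mannose. Its signals were 895, 412, 685, 547 and 867 in D257A mice and 246, 367, 264, 238 and 253 in WT mice. WT mouse 1-13M was the highest WT mouse here, where it was the lowest for Cd209a, Cd209d, Cd209e and the Clec4n probe set 1419627_s_at. The log2 fold change was 1.28 (SE 0.21, limma adjusted p = 0.00336), or 2.42-fold, and 1.39 without WT mouse 1-13M. The methods' t-test on linear signals did not call it (adjusted p = 0.056). The D257A mice with the highest and lowest Clec10a, 2-17M and 2-21M, were also those with the highest and lowest Mrc1. Mgl2, its close paralog and no member, had 178 to 290 in D257A mice and 78.8 to 196 in WT mice, and its log2 fold change of 0.90 (SE 0.26) fell just short of a call (adjusted p = 0.0519). Whether the probes of Clec10a and Mgl2 read each other's RNA was not tested.

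Clec4n, or dectin-2, binds mannose-rich polysaccharides of fungi and signals through the Fc receptor γ chain. Probe set 1419627_s_at had 141, 113, 143, 149 and 132 in D257A mice and 71.9, 32.8, 54.5, 72.7 and 71.8 in WT mice. All WT values were below the filter of 76.9, so this probe set passed it only through the D257A mice. The log2 fold change was 1.21, or 2.32-fold, with a limma adjusted p of 0.0422 with no filter (SE 0.29) and 0.0145 above it (SE 0.26). Without WT mouse 1-13M it was 1.01 (adjusted p = 0.0328 with no filter). With no filter the call was lost without scaling (adjusted p = 0.0633), among mice numbered 2 (0.0975) and by the methods' t-test on log2 signals (0.0541). Entering the first digit of the mouse numbers as a block gave 1.10, which was not called (adjusted p = 0.118). The dimmer probe set 1425951_a_at had 38.1, 34.1, 64.0, 68.9 and 71.2 in D257A mice against 25.0, 38.5, 27.1, 4.9 and 4.6 in WT mice, with overlap. Its log2 fold change of 1.89 (SE 0.65, no filter, adjusted p = 0.16) had the same sign and was not called. The suffix of the first marks probes that may match more than 1 transcript.

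Clec7a, or dectin-1, is the receptor for β-glucan and signals through Syk by its own tyrosine motif. Its signals were 171, 170, 234, 153 and 270 in D257A mice and 206, 131, 96.8, 83.5 and 119 in WT mice. The genotypes overlapped because WT mouse 1-12M was above 3 D257A mice. The log2 fold change of 0.69 (SE 0.25, 95% interval 0.14 to 1.24, limma adjusted p = 0.116) was not called. It was called among mice numbered 2 alone, at 1.12 (adjusted p = 0.0329).

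Mbl1 and Mbl2, the secreted mannose-binding lectins, were dim in muscle of both genotypes. Mbl1 had 19.3 to 56.5 in D257A mice and 23.6 to 71.5 in WT mice, and Mbl2 had 10.0 to 57.8 and 29.5 to 70.8. No value reached the filter of 76.9, and the genotypes overlapped for both genes. The log2 fold changes in the fit with no filter were -0.28 for Mbl1 (95% interval -1.26 to 0.70) and -0.46 for Mbl2 (-1.59 to 0.67). Both intervals include 0. Markers of liver, where both are made, were near background too, with 4 of 5 below the filter and a summed signal of 143 to 215 in D257A mice and 153 to 204 in WT mice. The promoters of Mbl1 and Mbl2 held neither GAGGAA nor TTCNNNNGAA.

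**Figure D3:**
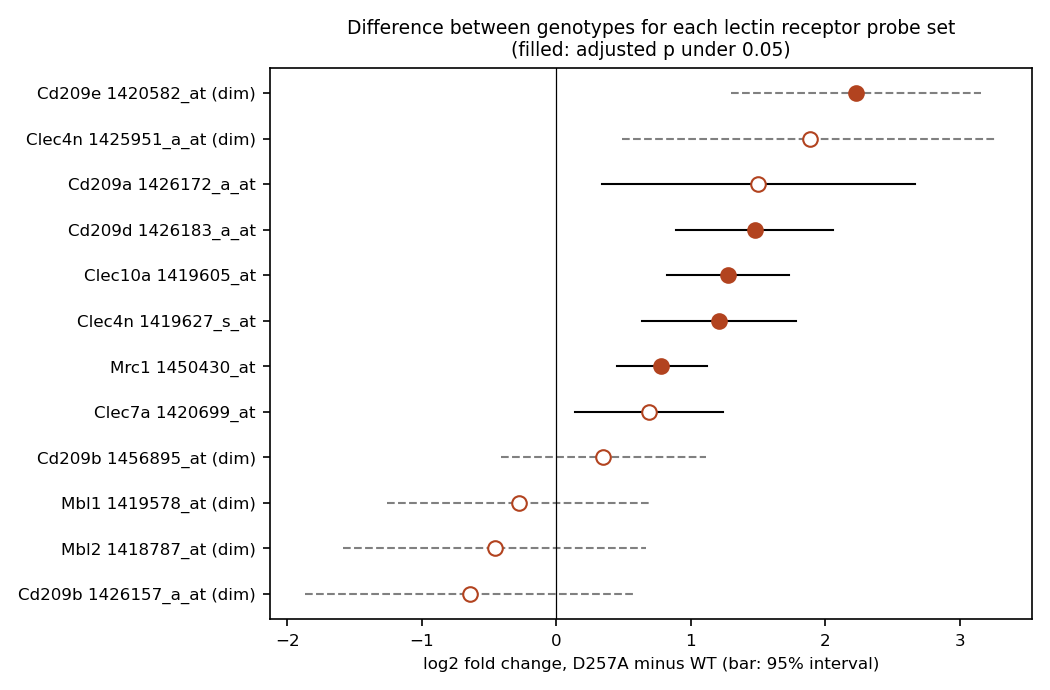
Log2 fold change (D257A minus WT) of the 12 probe sets with its 95% interval, 5 mice per genotype; filled points were called, and dim probe sets, taken from the fit with no filter, have dashed bars. The filled points lie between 0.78 and 2.23, the last for the dim Cd209e, and the Mbl1, Mbl2 and second Cd209b probe sets lie below 0 with intervals that cross it.

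Some macrophage markers rose and most were not called. Of 10 markers, 9 were above the filter and 3 rose: the lysozyme gene Lyz2 (0.59, limma adjusted p = 0.042), the immunoglobulin receptor Fcgr3 (1.00, adjusted p = 0.0021) and the galectin Lgals3 (1.32, adjusted p = 6.38e-04), and 0 fell. Among 11216 genes each read by their brightest probe set, 3.71% rose and 3.52% fell. The defining markers Cd68, Csf1r and Adgre1 had log2 fold changes of 0.02, 0.20 and 0.33 with overlapping signals and were not called, and Fcgr1 was at -0.31 (adjusted p = 0.475). The summed marker signal was 7576 to 10363 in D257A mice and 5715 to 7285 in WT mice. Bright genes weigh most in this sum. Mean signals in D257A and WT mice were 3009 and 2012 for Lyz2, 2465 and 2129 for Csf1r, and 1455 and 595 for Lgals3. Dendritic cell markers summed to 3752 to 5782 and 2924 to 4376, and 1 of 4 above the filter rose, the class II gene H2-Eb1 (0.74, adjusted p = 0.0283), while the defining markers Itgax, Flt3, Xcr1, Batf3, Ccr7 and Siglech were below the filter. Zbtb46, the defining marker above it, had 120 to 203 in D257A mice and 177 to 270 in WT mice, with a log2 fold change of -0.49 that was not called (adjusted p = 0.129).

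Each receptor was also set against the mean log2 signal of the 9 macrophage markers in the same mouse, a comparison added after the data were seen. That mean was itself 0.41 higher in D257A mice, at 8.94 to 9.33 against 8.59 to 8.85 in WT mice, without overlap. It averages markers with log2 fold changes from -0.31 for Fcgr1 to 1.32 for Lgals3. Whether it follows the number of macrophages was not tested. On this scale Cd209d still separated the genotypes, at -0.60 to -0.35 in D257A mice and -2.79 to -0.82 in WT mice. Cd209e did as well, at -2.98 to -2.38 and -5.90 to -3.80. Clec4n (1419627_s_at) lay at -2.19 to -1.80 and -3.80 to -2.42, and Clec10a at -0.25 to 0.53 and -0.82 to -0.31, also without overlap but with a narrow gap for Clec10a. These probe sets had separated the genotypes before the subtraction too. The share of all probe sets without overlap on this scale was not computed. Mrc1 overlapped, at 0.99 to 1.34 and 0.50 to 1.26, as did Cd209a and Clec7a. The mean differences on this scale were 1.06 for Cd209d, 0.80 for Clec4n, 0.86 for Clec10a and 0.37 for Mrc1. For Cd209a it was 1.09, with WT mouse 1-13M at -5.21, and for Cd209e the size is uncertain because its WT signals were near background.

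**Figure D4:**
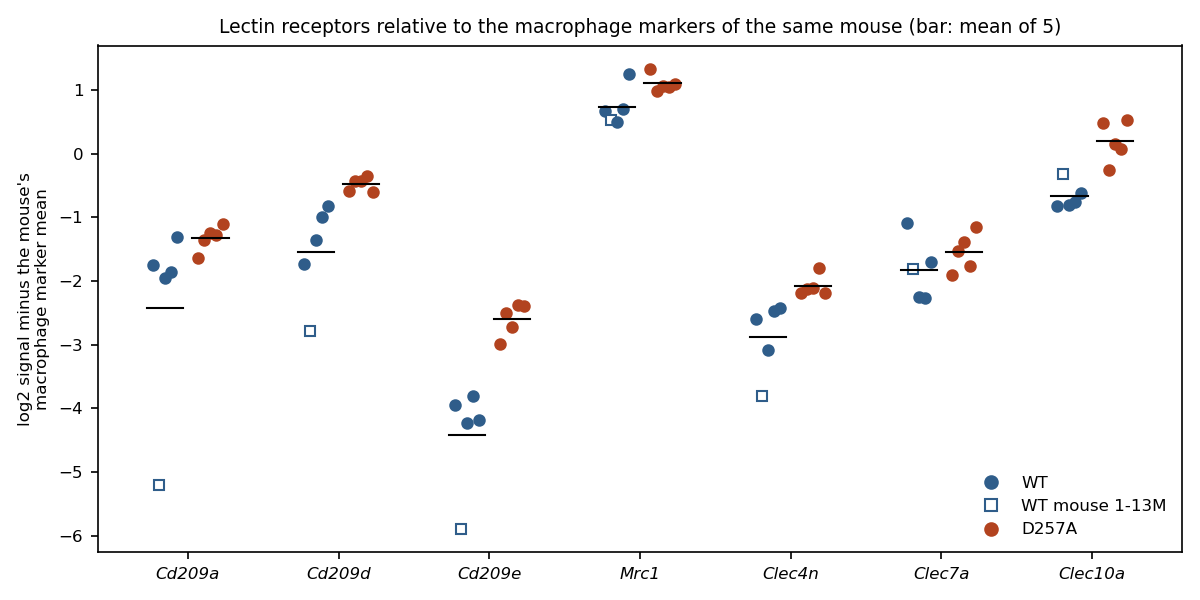
Log2 signal of the 6 probe sets above the filter and of Cd209e, minus the mean log2 signal of 9 macrophage markers in the same mouse, for 5 WT mice (blue, 1-13M as an open square) and 5 D257A mice (orange), with bars for means. Cd209d, Cd209e, Clec4n and Clec10a separate the genotypes, and Mrc1, Cd209a and Clec7a overlap. The share of all probe sets that separate on this scale was not computed.

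Markers of other cells did not all move with the receptors. Skeletal muscle markers summed to 392424 to 428559 in D257A mice and 356149 to 471699 in WT mice, with 1 of 8 lower, the oxygen store Mb (-0.35, adjusted p = 0.0353). Since the labels' extraction text mentions cochlea tissue, inner ear markers were read too, and 5 of 8 were below the filter, with sums of 399 to 611 and 492 to 600. Neutrophil markers summed to 694 to 3775 and 384 to 1044 with 0 of 3 called. Endothelial (0 of 5), adipocyte (0 of 4), B cell (0 of 1) and T cell (0 of 1) markers had no calls. Mast cell markers summed lower, at 536 to 694 against 752 to 909, with 1 of 3 called, the chymase Cma1 (-1.04, adjusted p = 0.0287). Fibroblast markers had 2 of 5 lower, the collagens Col1a1 (-2.87, adjusted p = 0.0282) and Col3a1 (-1.80, adjusted p = 0.0245). The part of these cells in the receptor values was not tested.

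Among the other C-type lectin receptors, 28 of 32 listed genes had a probe set of their own, 13 were above the filter, and 0 were called in either direction by limma (3 were higher and 1 lower at an unadjusted p under 0.05). Their median log2 fold change was 0.10, against -0.01 over the 11216 genes. The list of soluble lectins and the lectin pathway of complement also holds other complement genes, such as C1qa, C1qb and C1qc. It had 0 of 10 called (1 higher and 1 lower at an unadjusted p under 0.05) and a median of 0.10. Masp1, a protease that Mbl1 and Mbl2 carry, had a log2 fold change of -0.15 (SE 0.18), and Masp2 was below the filter. Signaling genes below these receptors had 1 of 14 called higher and 0 lower (4 were higher and 1 lower at an unadjusted p under 0.05), with a median of 0.26. The gene called was Tyrobp, an adaptor with a tyrosine motif, from 299 to 332 in WT mice to 400 to 564 in D257A mice (0.59, SE 0.14, adjusted p = 0.0198). That call was lost without scaling (adjusted p = 0.0894), among mice numbered 2 (0.0715), with the first digit as a block (0.113) and with any of D257A mice 2-17M and 2-30M and WT mice 1-12M and 2-32M left out (0.0505 to 0.0552). Fcer1g, the Fc receptor γ chain used by Clec4n, had 273 to 421 in D257A mice and 215 to 291 in WT mice, and its log2 fold change of 0.51 was not called (adjusted p = 0.0594). Relb went the other way without overlap, with 47.3 to 138 in D257A mice and 164 to 219 in WT mice. Its log2 fold change of -0.88 was not called either (adjusted p = 0.0642). Syk, the kinase that Clec7a recruits, was below the filter.

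Genes of alternative activation, the macrophage state in which Mrc1 and Clec10a are classic markers, went both ways, with 3 of 15 higher, 1 lower and a median of 0.09. The chemokine Ccl8 had 573 to 1195 in D257A mice and 131 to 259 in WT mice (2.05, SE 0.24, limma adjusted p = 4.69e-04). The secreted factor Retnla (0.97, adjusted p = 0.0116) and the hemoglobin scavenger receptor Cd163 (0.97, adjusted p = 0.0209) rose with overlapping signals. Neither was called by the methods' t-test on log2 signals (adjusted p = 0.0643 and 0.087) or on linear signals (0.0748 and 0.15). The Cd163 call was also lost among mice numbered 2 (adjusted p = 0.112), with the first digit as a block (0.153) and with any of D257A mouse 2-30M and WT mice 1-12M and 2-3M left out (0.0511 to 0.0594). Cbr2, a carbonyl reductase, fell from 1020 to 1588 in WT mice to 420 to 588 in D257A mice (-1.34, SE 0.15, adjusted p = 3.65e-04). Arg1 and Chil3, often used as defining genes of that state, were below the filter. In the fit with no filter Arg1 was at -2.17 (adjusted p = 0.23) and Chil3 at 0.90 (adjusted p = 0.482), neither called. Arg1 had 1.3 to 3.8 in D257A mice and 1.7 to 41.1 in WT mice, near background, so the size of its difference is uncertain. Il4ra, the receptor for the cytokine that induces alternative activation, was at 0.91 and was not called (adjusted p = 0.061).

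**Figure D5:**
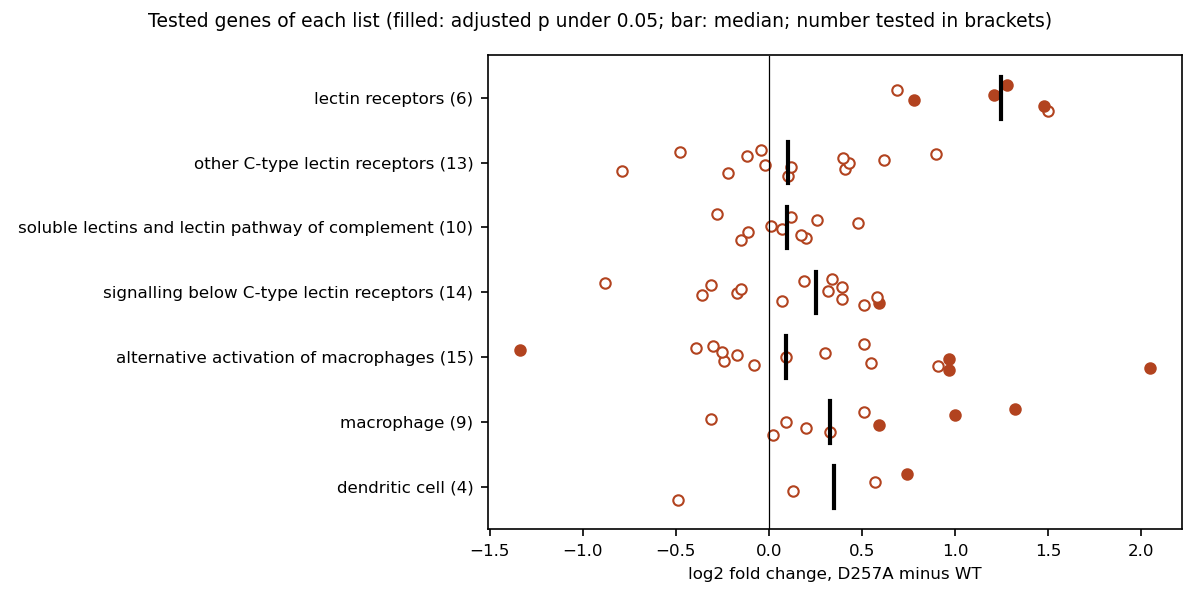
Log2 fold change (D257A minus WT) of the genes above the filter in the lectin receptors, the 4 related gene lists and the macrophage and dendritic cell markers, 1 point per gene, with filled points for calls and a bar for the median. The lectin receptors plotted lie from 0.69 to 1.50, and the 6 other lists plotted have medians from 0.09 to 0.35 and members on both sides of 0. Dim lectin receptor probe sets are not plotted, among them Mbl1 (-0.28), Mbl2 (-0.46) and 1 of Cd209b (-0.64), which lie below 0.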

How the data were processed

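The authors scanned 10 Affymetrix Mouse Genome 430 2.0 arrays, 1 per mouse, and made 1 intensity per probe set on a linear scale with GCOS 1.3, per the labels. How GCOS computed the signal is not stated in the sources used here. Because the deposited intensity columns did not have the stated mean, each was scaled to a trimmed mean of 500. Of 45101 probe sets, 64 AFFX controls were left out. Log2 values were compared with limma 3.58.1 in R 4.3.3 (lmFit, eBayes with a trend, no covariates), with Benjamini-Hochberg adjustment over all probe sets tested, and the fit was tested on simulated data. Dim members took their values from the same fit with no filter. Symbols came from the platform annotation, updated by gene ID, and 34945 probe sets had 1 symbol, 932 several and 9160 none listed. Of the other lists, called genes were named, up to 4 per list by adjusted p, with a few genes beside members added after their values were seen. The members and lists were chosen with earlier results of these data known. Alternatives were other scalings, filters, variance models, an offset of 32, the methods' t-test on log2 and linear signals, mice numbered 2, the leading digit as a block, and each mouse left out. Fits of dim members under other settings were added after the data were seen. Promoters were matched by symbol to a RefSeq table (GRCm38.p6), which held 8 of the 10 genes. The number of arrays limits the precision. The mice are separate animals.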

Additional observations from a re-analysis of the deposited data

Results flagged for a closer look

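In 5 of 24 groups of mice, 12 probe sets in each genotype, 1 mouse was set apart, its gap to the nearest mouse divided by the group's range exceeding 0.71 on the log2 scale, where chance would set apart about 5% of groups. The 24 groups are the same mice read by different probe sets, so they are not independent and the 5% is only a guide. WT mouse 1-13M was lowest for Cd209a (12.4 against 111 for the next, ratio 0.866) and for Cd209e (7.7 against 21.3, ratio 0.767), and highest for Clec10a (367 against 264, ratio 0.764). WT mouse 3-18M was highest for Mrc1 (925 against 693, ratio 0.835). D257A mouse 2-25M was highest for the dim Cd209b probe set 1426157_a_at (11.8 against 5.8, ratio 0.882).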

How the results depend on the processing

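The 4 member calls became 2 over the brightest 11259 probe sets, which hold Clec10a and Mrc1 alone of the 4, and 2 with the methods' t-test on linear signals, for Cd209d and Clec4n, and ranged from 4 to 5 with each mouse left out. Over all probe sets 1662 calls became 3968 with array weights, 1033 and 994 with the methods' t-test on log2 and linear signals, 562 with the leading digit as a block, and 890 to 3428 with each mouse left out. The 5 called genes of the other lists became 8 after quantile normalization, 11 with median centring, 3 over the brightest 11259, 15 with array weights, 3 with either t-test, 3 with the block, and 3 to 11 with each mouse left out, where leaving out D257A mouse 2-30M or WT mouse 1-12M gave 3 and leaving out WT mouse 1-13M gave 11. The Cd209b probe set 1426157_a_at turned from -0.64 to 0.03 among mice numbered 2. The cause was not tested. Over the 12 member probe sets, 173 of 188 fold changes under other settings kept their sign and side of the threshold, 9 lost a call, 5 gained one and 1 reversed. No paired analysis was possible because the mouse numbers are not shared between genotypes. Dim probe sets are near background, where log2 differences are least certain.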
